A study of Mus with 4 samples.

Results

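Expression of the MHC class II presentation genes was examined in cells dissociated from mouse dorsal root ganglia (DRGs), the ganglia that hold the cell bodies of sensory neurons together with their glia, vessels and resident immune cells. The set held 7 of the 31253 genes counted and was taken by gene symbol, with earlier results of these data known when it was chosen. Its members were Cd74, H2-Aa, H2-Ab1, H2-Eb1, H2-DMa, H2-DMb1 and Ciita, and all 7 were counted in each of the 4 libraries. The CCI group was taken 3 d after chronic constriction injury, a model of neuropathic pain made by tying loose ligatures on the left sciatic nerve, and the CON group consisted of naïve mice without injury. Each group had 2 libraries, made from left L4 and L5 DRGs of wildtype male C57BL/6J mice of 6–8 weeks, given as 8 weeks for the dissociated ganglia. No transgene was used in either group. No drug was named apart from isoflurane for the surgery, which the naïve CON mice did not undergo. Transcripts were counted by 10x Genomics 3′ single-cell RNA sequencing with unique molecular identifiers (UMIs). The labels call the cells neurons, but the libraries held glial, vascular and immune cells as well. The labels describe collagenase II and cryopreserved suspensions, whereas the study's methods describe Liberase and papain, and the sources used here do not state how many mice were pooled for a library.

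MHC class II molecules present peptides from taken-up proteins to CD4+ T cells. H2-Aa and H2-Ab1 encode the alpha and beta chains of I-A, and H2-Eb1 encodes the beta chain of I-E, whose alpha chain C57BL/6 mice do not make. Cd74, the invariant chain, escorts newly made class II molecules to endosomes and blocks their groove until it is cleaved. H2-DMa and H2-DMb1 form H2-M, which exchanges the remaining fragment of the invariant chain for peptide. Ciita, the class II transactivator, switches these genes on and is constitutive in dendritic cells and B cells, while interferon gamma induces it in macrophages and many other cells. The genes of the set lie in 3 places of the GRCm38 genome. H2-DMa (34119693–34139101), H2-DMb1 (34153191–34160229), H2-Ab1 (34263227–34269418), H2-Aa (34282744–34287823) and H2-Eb1 (34305867–34316674) are neighbours on chromosome 17. Cd74 lies on chromosome 18 (60803849–60812652) and Ciita on chromosome 16 (10480014–10531064). H2-DMb1 has a near-identical copy, H2-DMb2, so the split of reads between these genes is uncertain.

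After quality control 11155 and 10602 cells were kept in CCI replicates 1 and 2, against 10743 and 2613 in CON replicates 1 and 2. Total UMIs per library lay between 52074235 and 135009606, and the median UMI count of a kept cell was 3675 and 4552 in the CCI libraries, against 2508 and 8352 in the CON libraries. CON replicate 2 thus held the fewest and deepest cells. Between 12 and 31 cell barcodes were shared by any pair of libraries. Cells were grouped by marker genes with the class II genes left out of the clustering, and the suffix -like marks the names so given. The listed macrophage markers, such as the complement genes C1qa, C1qb and C1qc, summed to 15800 and 18900 counts per 1000000 UMIs (CPM) in macrophage-like cells of the CCI libraries, against 12500 and 19700 CPM in those of the CON libraries. Endothelial markers summed to 10400 and 10000 CPM in endothelial-like cells of CCI, against 11500 and 12500 CPM in CON. Satellite glial markers summed to 12800 and 11500 CPM in satellite glia-like cells of CCI, against 9560 and 11600 CPM in CON. No marker of these 3 lists was at 0 in its own class. Levels are given as CPM of all UMIs of a class in a library, and because 3′ UMIs were not compared per length, levels were compared between cells and libraries but not between genes.

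The immune classes held most of the transcripts of Cd74, H2-Aa, H2-Ab1 and H2-Eb1. The order of the classes by Cd74 level was led by monocyte and dendritic cell-like cells, at 13100 and 23100 CPM in CCI, against 8430 and 19300 CPM in CON. Macrophage-like cells had 3510 and 4050 CPM in CCI, against 6820 and 12700 CPM in CON. B cell and mast cell-like cells, which shared 1 cluster, had 2890 and 6450 CPM in CCI, against 2810 and 7180 CPM in CON. Each of these 3 immune classes overlapped its neighbour in this order over the 4 libraries. Within each library monocyte and dendritic cell-like cells were above macrophage-like cells. B cell and mast cell-like cells were below macrophage-like cells except in CCI replicate 2. T or NK cell-like cells had 174 and 330 CPM in CCI, against 29.8 and 0 CPM in CON. Among non-immune classes endothelial-like cells had 23.1 and 38.8 CPM of Cd74 in CCI, against 73.5 and 11.6 CPM in CON, and fibroblast-like cells had 5.40 and 47.9 CPM in CCI, against 33.7 and 2.79 CPM in CON. Myelinating Schwann cell-like, non-myelinating Schwann cell-like, satellite glia-like, mural cell-like and neuron-like cells ranged between 1.26 and 16.3 CPM over the 4 libraries and were not separated from each other beyond their spread. H2-Aa, H2-Ab1 and H2-Eb1 were likewise highest in the 3 leading immune classes among all named classes.

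**Figure D1:**
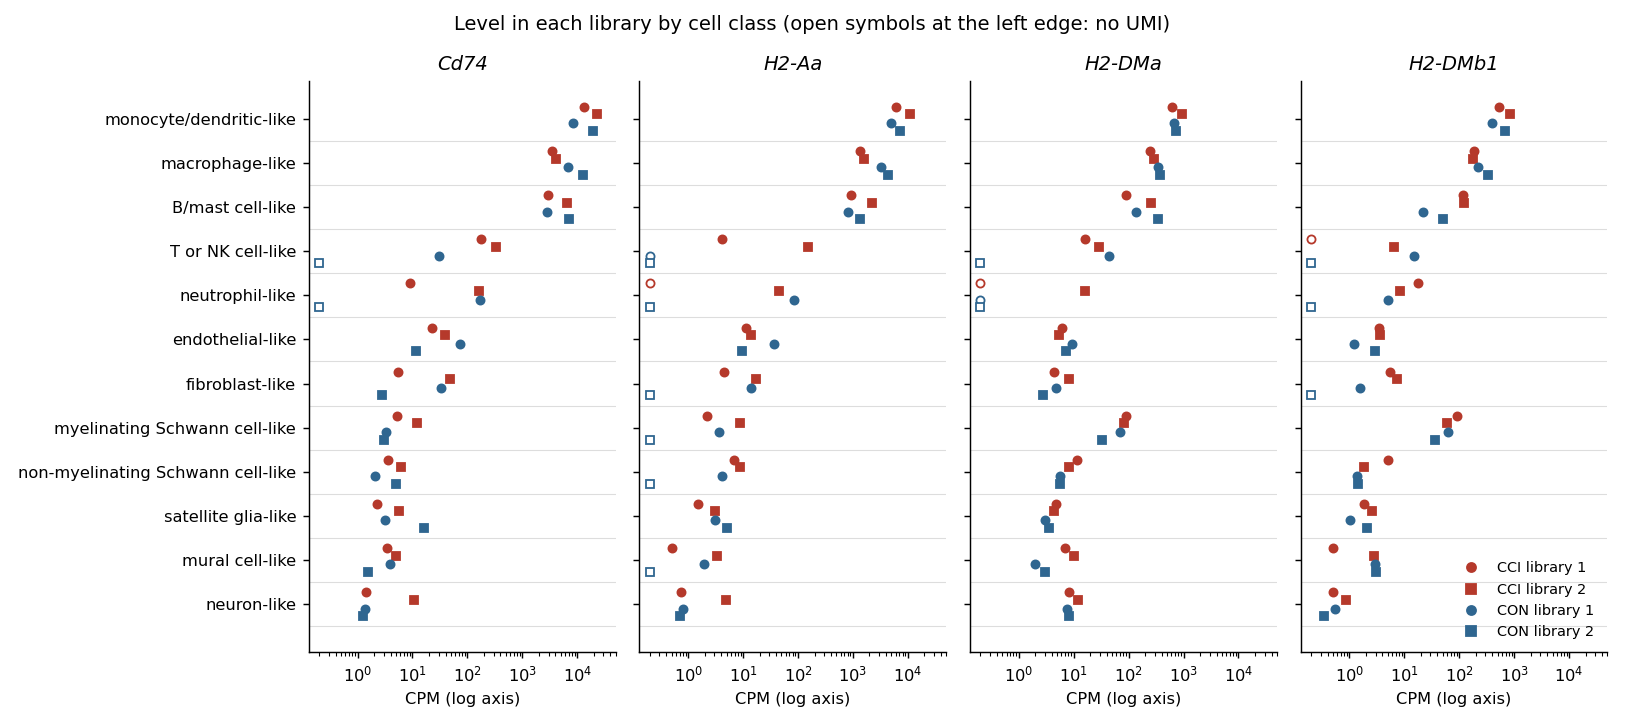
Level of Cd74, H2-Aa, H2-DMa and H2-DMb1 in CPM (log axis) by cell class, with 1 symbol per library, CCI in red above CON in blue, circles for replicate 1 and squares for replicate 2, and open symbols at the left edge where no UMI was counted. Cd74 and H2-Aa lie at 814 CPM or above in the 3 uppermost immune classes and at 330 CPM or below in the other classes drawn, whereas H2-DMa and H2-DMb1 also reach 33.1 to 93.0 CPM in myelinating Schwann cell-like cells.

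The classes that held the UMIs of the I-A and I-E genes and of Cd74 differed between the groups. Macrophage-like cells held 29.1% and 37.0% of the Cd74 UMIs of all kept cells in the CCI libraries, against 74.9% and 67.8% in the CON libraries. Monocyte and dendritic cell-like cells held 57.8% and 51.5% of them in CCI, against 15.5% and 23.6% in CON. The groups did not overlap in either share. H2-Aa gave the same picture, with 25.6% and 32.9% of its UMIs in macrophage-like cells of CCI, against 72.8% and 64.0% in CON. Ciita, of which 76 and 114 UMIs were counted in the CCI libraries and 42 and 46 in the CON libraries, had 9.21% and 28.9% of them in macrophage-like cells of CCI, against 54.8% and 45.7% in CON. A share of UMIs moves with the number of cells as well as with the level per cell. Macrophage-like cells numbered 217 and 663 in CCI, against 316 and 92 in CON, and monocyte and dendritic cell-like cells 76 and 122 in CCI, against 38 and 17 in CON. With 2 libraries a group the smallest p-value of an exact two-sided permutation test is 0.33, so such shares are given as values.

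**Figure D2:**
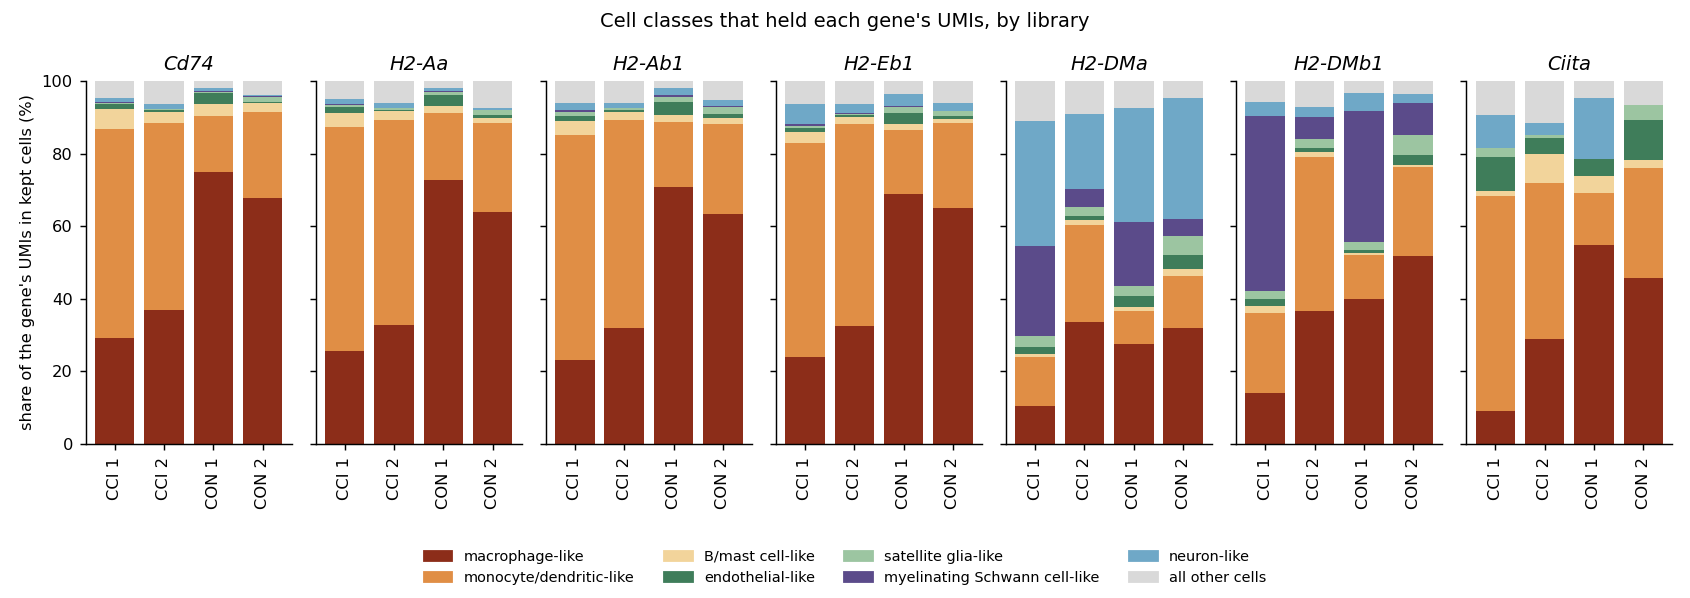
Share of the UMIs of each of the 7 genes (%, stacked bars) that fell in each cell class, 1 bar per library with the CCI libraries left of the CON libraries. For Cd74, H2-Aa, H2-Ab1 and H2-Eb1 the macrophage-like part is smaller and the monocyte and dendritic cell-like part larger in both CCI bars, with 29.1% and 37.0% of Cd74 UMIs in macrophage-like cells of CCI, against 74.9% and 67.8% in CON.

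In macrophage-like cells, each of the 7 genes was lower in both CCI libraries than in both CON libraries. An exact two-sided permutation test gives a p of 0.33 for a single gene separated in this way. How many of all genes tested separated likewise was not counted, here or for the separations without overlap named further below. Cd74 averaged 3780 ± 381 CPM in CCI and 9770 ± 4170 CPM in CON (SD, n = 2 each). H2-Aa had 1340 and 1590 CPM in CCI, against 3220 and 4290 CPM in CON. H2-Ab1 had 1380 and 1440 CPM in CCI, against 2930 and 4100 CPM in CON. The chains of the class II dimers and the invariant chain thus stood apart between the groups without overlap, with the CON libraries farther from each other than the CCI libraries. H2-Eb1 had 1390 and 1310 CPM in CCI, against 2680 and 4580 CPM in CON. For the peptide exchange factor H2-M the gap was narrower, with H2-DMa at 250 and 292 CPM in CCI, against 340 and 369 CPM in CON. H2-DMb1 had 183 and 179 CPM in CCI, against 217 and 333 CPM in CON. Ciita, the regulator of the others, was at 8.76 and 8.98 CPM in CCI, from 7 and 33 UMIs, against 26.7 and 33.7 CPM in CON, from 23 and 21 UMIs. C1qa, a macrophage marker, was at 5260 and 6090 CPM in CCI, against 4390 and 6290 CPM in CON, and overlapped.

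None of the 7 genes passed the test in macrophage-like cells. In edgeR's quasi-likelihood test on the summed counts, 0 of 7 had an adjusted p under 0.05 beside 0 of 8397 genes (0%) in all, 5 of 7 had an unadjusted p under 0.05 beside 456 of 8397 genes, and DESeq2 called 0 of 7. The log2 fold change of CCI over CON was −1.47 for Cd74 (SE 0.47, adjusted p = 0.881), −1.44 for H2-Aa (SE 0.39), −1.41 for H2-Ab1 (SE 0.39) and −1.53 for H2-Eb1 (SE 0.45). It was −1.81 for Ciita (SE 0.43, adjusted p = 0.747), −0.46 for H2-DMa (SE 0.36) and −0.69 for H2-DMb1 (SE 0.42). The median over the 7 genes was −1.44, beside −0.05 over all genes tested. The calls depended on the libraries kept, since Cd74 and H2-Eb1 passed the edgeR test only without CON replicate 1. That fit leaves a lone CON library, which is assumed to vary as the CCI libraries do, so it cannot show what decided the calls. Markers of neurons, which are not made by macrophages, summed to 7640 and 2670 CPM in macrophage-like cells of CCI, against 6720 and 459 CPM in those of CON, and their part in the result was not tested.

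**Figure D3:**
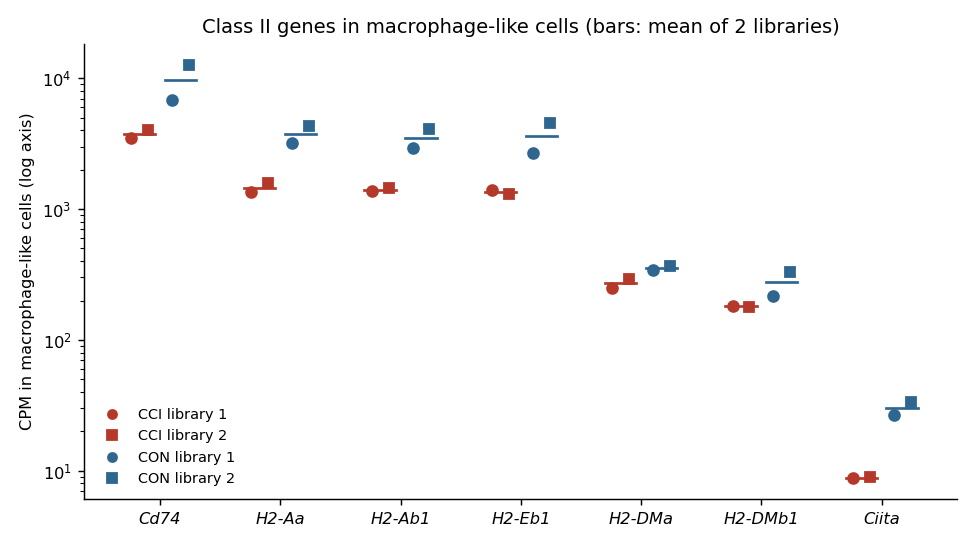
Level of the 7 genes in macrophage-like cells in CPM (log axis), 1 symbol per library with CCI in red left of CON in blue, and a bar at the mean of the 2 libraries. Both CCI symbols lie below both CON symbols for all 7 genes, with the widest gaps for Cd74, H2-Aa, H2-Ab1, H2-Eb1 and Ciita and narrower ones for H2-DMa and H2-DMb1.

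In both CCI libraries a smaller share of macrophage-like cells had a class II transcript, and positive cells held fewer of them on average. To compare cells at equal depth, each was thinned to 1500 UMIs, which left out 74 and 163 shallower cells in CCI, against 33 and 15 in CON. After thinning, 53.8% (95% exact binomial interval 45.3–62.2%) and 56.2% (51.7–60.6%) of macrophage-like cells had a Cd74 UMI in CCI, against 87.3% (82.8–90.9%) and 85.7% (75.9–92.6%) in CON. For H2-Aa the shares were 37.8% and 38.0% in CCI, against 72.1% and 74.0% in CON. All 4 of Cd74, H2-Aa, H2-Ab1 and H2-Eb1 were found together in 29.4% and 28.6% of cells in CCI, against 58.3% and 62.3% in CON. The shares of Cd74 and H2-Aa were lower in both CCI libraries than in both CON libraries. The intervals cover counting error of cells within a library only and do not compare the groups. H2-DMa was found in 26.6% (19.5–34.6%) and 36.0% of thinned cells in CCI, against 42.4% (36.6–48.4%) and 40.3% in CON, a narrower gap. Before thinning, Cd74 was found in 54.4% and 63.5% of cells in CCI, against 89.6% and 92.4% in CON, at median depths of 2071 and 5061 UMIs in CCI, against 2567 and 6753.5 UMIs in CON.

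The summed UMIs of Cd74, H2-Aa, H2-Ab1 and H2-Eb1 per thinned macrophage-like cell were spread widely in every library. The median was 1 UMI in each CCI library, against 19 and 27 UMIs in the CON libraries. The upper quartile was 13 and 17 UMIs in CCI, against 40 and 62 UMIs in CON, and 38.5% and 40.4% of cells were at 0 in CCI, against 10.2% and 10.4% in CON. Positive cells held on average 21.1 and 26.0 UMIs in CCI, against 28.0 and 44.7 UMIs in CON. Cells with many class II UMIs were present in both groups, and cells at 0 made up a larger share in both CCI libraries.

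Macrophage-like cells fell into 6 clusters that were not equally filled. Cluster 0, led by the chemokine genes Cxcl2, Ccl3 and Ccl4, held 13.4% and 31.2% of macrophage-like cells in CCI, against 37.0% and 44.6% in CON. Cluster 1, led by Pf4 and the C1q genes, held 39.6% and 15.7% in CCI, against 39.2% and 31.5% in CON. Within cluster 1, Cd74 was at 1800 and 2250 CPM in CCI, against 7570 and 15100 CPM in CON, and Ciita at 3.71 and 3.74 CPM in CCI, against 19.5 and 22.0 CPM in CON. Within cluster 0 the gap was smaller, with Cd74 at 7290 and 5770 CPM in CCI, against 8510 and 13700 CPM in CON. H2-DMa in cluster 0 was at 432 and 337 CPM in CCI, against 346 and 335 CPM in CON, the only setting tried in which its fold change was above 0. Cluster 8, whose leading genes included the division genes Mki67 and Top2a, held 7.37% and 13.4% of macrophage-like cells in CCI, against 1.27% and 4.35% in CON, and its Cd74 level was 3370 and 2860 CPM in CCI, against 7310 and 19600 CPM from 4 cells in each CON library. Clusters 4 and 6 had low UMI counts, took 17.0% to 18.4% of the cells each in CCI, against 2.17% to 10.9% in CON, and did not show the lower level. Both had 8 of 8 macrophage markers raised, but cluster 4 also had 6 of 6 neutrophil markers raised, and cluster 6 was led by Ppbp and Ccl8. C1qa in cluster 6 was at 689 and 2660 CPM in CCI, against 2220 and 0 CPM in CON. The positive shares and per-cell sums above include cells of both clusters. In cluster 4 Cd74 overlapped, at 2000 and 5700 CPM in CCI, against 2380 and 6220 CPM in CON, and in cluster 6 it was at 3130 and 2040 CPM in CCI, against 1550 and 232 CPM in CON, with 2 cells in CON replicate 2. Cluster 10 overlapped as well, with Cd74 at 4390 and 3750 CPM in CCI, against 3920 and 6540 CPM in CON. Without clusters 4 and 6 Cd74 was at 3780 and 4030 CPM in CCI, against 7340 and 13200 CPM in CON.

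**Figure D4:**
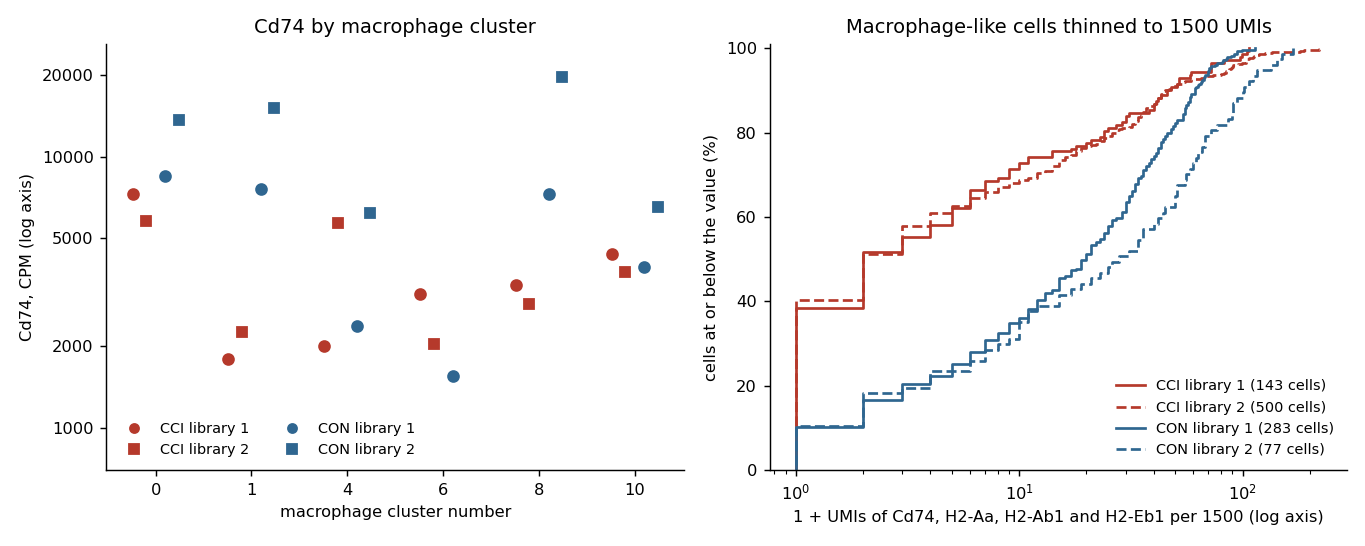
Left, Cd74 in CPM (log axis) in 6 clusters of macrophage-like cells, 1 symbol per library, CCI in red left of CON in blue, clusters with fewer than 3 cells in a library left out for it. Right, share of macrophage-like cells (%) at or below a given sum of Cd74, H2-Aa, H2-Ab1 and H2-Eb1 UMIs per 1500 UMIs (log axis, 1 added). The groups lie farthest apart in cluster 1, and the CCI curves start at 38.5% and 40.4% of cells at 0, against 10.2% and 10.4% for CON.

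Monocyte and dendritic cell-like cells, which come from 1 cluster with both sets of markers, did not show the difference seen in macrophage-like cells. H2-Aa was at 6070 and 11100 CPM in CCI, against 4880 and 7170 CPM in CON, and H2-DMa at 617 and 944 CPM in CCI, against 675 and 728 CPM in CON. Ciita had 106 and 54.5 CPM in CCI, against 41.7 and 98.1 CPM in CON. All 7 genes overlapped between the groups. The thinned share of cells with Cd74 was 64.4% and 88.4% in CCI, against 55.3% and 62.5% in CON, where replicate 2 had 16 cells and an interval of 35.4–84.8%. The makeup of the class varied, since its monocyte markers summed to 5150 and 1350 CPM in CCI, against 4490 and 8720 CPM in CON, while its dendritic cell markers summed to 713 and 1040 CPM in CCI, against 376 and 770 CPM in CON. With fewer than 20 cells in CON replicate 2 the class was not tested. In B cell and mast cell-like cells Cd74 and H2-Aa also overlapped, with H2-Aa at 936 and 2260 CPM in CCI, against 814 and 1370 CPM in CON. The makeup of this class differed too, since its mast cell markers summed to 3160 and 7460 CPM in CCI, against 11.2 and 0 CPM in CON, while its B cell markers summed to 4260 and 10700 CPM in CCI, against 9390 and 21500 CPM in CON, and their part in these levels was not tested.

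Endothelial-like cells carried class II transcripts far below the macrophage level, and a few cells held a large part of them. H2-Aa was at 11.3 and 13.8 CPM in CCI, against 36.1 and 9.71 CPM in CON. H2-Ab1 was at 10.4 and 15.8 CPM in CCI, against 38.3 and 11.3 CPM in CON, so that CON replicate 1 was highest and CON replicate 2 lowest or next to it. Cells with at least 10 UMIs of Cd74, H2-Aa, H2-Ab1 and H2-Eb1 together numbered 6 and 3 in CCI, against 4 and 3 in CON. They held 44.3% and 62.1% of these UMIs in CCI, against 87.4% and 47.5% in CON. Of these cells, 4 and 1 in CCI, against 4 and 0 in CON, also had a UMI of C1qa, C1qb, C1qc, Tyrobp or Ptprc. Macrophage markers in endothelial-like cells summed to 30.3 and 23.5 CPM in CCI, against 34.9 and 2.89 CPM in CON, where 4 of the 8 markers were at 0 in CON replicate 2. With the cells that had such a UMI removed, Cd74 was at 14.3 and 20.6 CPM in CCI, against 9.54 and 12.0 CPM in CON.

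By the edgeR test 0 of 6 class II genes differed in endothelial-like cells beside 0 of 12144 genes (0%) in all, with 0 of 6 and 397 of 12144 genes at an unadjusted p under 0.05, and DESeq2 called 0 members. Ciita was too low to be tested, with 7 and 5 UMIs in CCI, against 2 and 5 UMIs in CON. The log2 fold change of Cd74 was −0.33 (SE 0.88, adjusted p = 0.988), and its direction was not stable: it was 1.63 without CON replicate 1 and 0.86 with the cells carrying macrophage UMIs removed. H2-DMa was at 6.16 and 5.51 CPM in CCI, against 9.50 and 7.35 CPM in CON, and H2-DMb1 at 3.42 and 3.68 CPM in CCI, against 1.23 and 2.89 CPM in CON, without overlap but in opposite directions. The H2-DMb1 levels of CON came from only 4 and 11 UMIs. Cells with a UMI of Plvap, a gene of fenestrated endothelium, had Cd74 at 26.0 and 42.7 CPM in CCI, against 123 and 14.8 CPM in CON. Those without it had 15.7 and 14.5 CPM in CCI, from 26 and 11 UMIs, against 9.82 and 2.06 CPM in CON, from 14 and 2 UMIs, at lower depth per cell.

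In satellite glia-like cells, the glia that wrap the neuronal somata, class II transcripts were at 16.3 CPM or less in every library. Cd74 was at 2.22 and 5.71 CPM in CCI, from 26 and 106 UMIs, against 3.22 and 16.3 CPM in CON, from 31 and 172 UMIs. In CON replicate 2, 5 of 908 cells held 61.1% of the UMIs of Cd74, H2-Aa, H2-Ab1 and H2-Eb1, and 2 of these 5 cells had a macrophage UMI. H2-Eb1 was at 2.05 and 3.29 CPM in CCI, against 5.30 and 6.24 CPM in CON, and H2-Ab1 at 4.26 and 4.80 CPM in CCI, against 5.30 and 7.84 CPM in CON, both without overlap. H2-DMa lay the other way, at 4.86 and 4.47 CPM in CCI, against 3.02 and 3.59 CPM in CON. The edgeR test called 0 of 6 genes beside 0 of 13004 genes (0%) in all, 0 of 6 and 426 of 13004 genes had an unadjusted p under 0.05, and DESeq2 called 0 members. The nearest was H2-Eb1, with a log2 fold change of −1.0 (SE 0.41, adjusted p = 0.999). Ciita was counted as 2 and 1 UMIs in CCI, against 0 and 2 UMIs in CON. Macrophage markers summed to 6.73 and 13.3 CPM in satellite glia-like cells of CCI, against 4.26 and 5.95 CPM in CON, and their part was not tested.

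The shares of positive cells in endothelium and satellite glia were set beside those of other non-immune classes, since free RNA gives UMIs in cells that do not make a transcript. After thinning, Cd74 was found in 0.278% and 0.550% of neuron-like cells in CCI, against 0.545% and 0.340% in CON. In satellite glia-like cells the share was 0.407% (0.176–0.801%) and 0.820% (0.508–1.25%) in CCI, against 0.269% (0.0986–0.584%) and 1.33% (0.688–2.31%) in CON. These intervals overlapped those of neuron-like cells in every library. In endothelial-like cells Cd74 was found in 2.59% (1.54–4.06%) and 2.63% (1.48–4.30%) of cells in CCI, against 2.18% (1.17–3.71%) and 1.21% (0.251–3.51%) in CON. In fibroblast-like cells it was found in 1.66% (0.612–3.58%) and 1.57% (0.837–2.66%) in CCI, against 0.271% and 2.22% in CON, and in the low-UMI barcodes with neuron markers in 0.327% and 1.42% in CCI, against 2.88% (1.62–4.70%) and 0.826% in CON. Mean shares of mural cell-like (0.688% in CCI, 0.402% in CON), myelinating (1.01%, 0.162%) and non-myelinating Schwann cell-like cells (0.777%, 0.405%) were below the endothelial means (2.61%, 1.70%). The endothelial interval also lay above that of satellite glia-like cells in both CCI libraries and CON replicate 1. Fibroblast-like cells and the low-UMI barcodes were not below endothelial-like cells in every library, so the endothelial share was not placed above background. Ciita was found in 0 of 1964 and 0 of 2560 thinned satellite glia-like cells in CCI, which allows shares of up to 0.153% and 0.117%, against 0 of 2234 and 0 of 904 in CON, which allows up to 0.134% and 0.332%. These limits are for cells with a UMI and not for cells that express the gene, since Ciita was found in only 1.40% and 1.60% of thinned macrophage-like cells in CCI, against 4.59% and 2.60% in CON. Before thinning, Cd74 was found in 6.24% and 6.60% of endothelial-like cells in CCI, against 3.24% and 4.63% in CON, and in 1.16% and 2.37% of satellite glia-like cells in CCI, against 1.02% and 4.52% in CON. Thinning dilutes free RNA more in deep cells than in shallow ones, so that neuron-like cells give no background of like depth. Their unthinned share was 3.75% and 7.74% in CCI, against 3.18% and 11.1% in CON, at median depths of 51101 and 61454 UMIs in CCI, against 36565 and 83024 UMIs in CON.

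**Figure D5:**
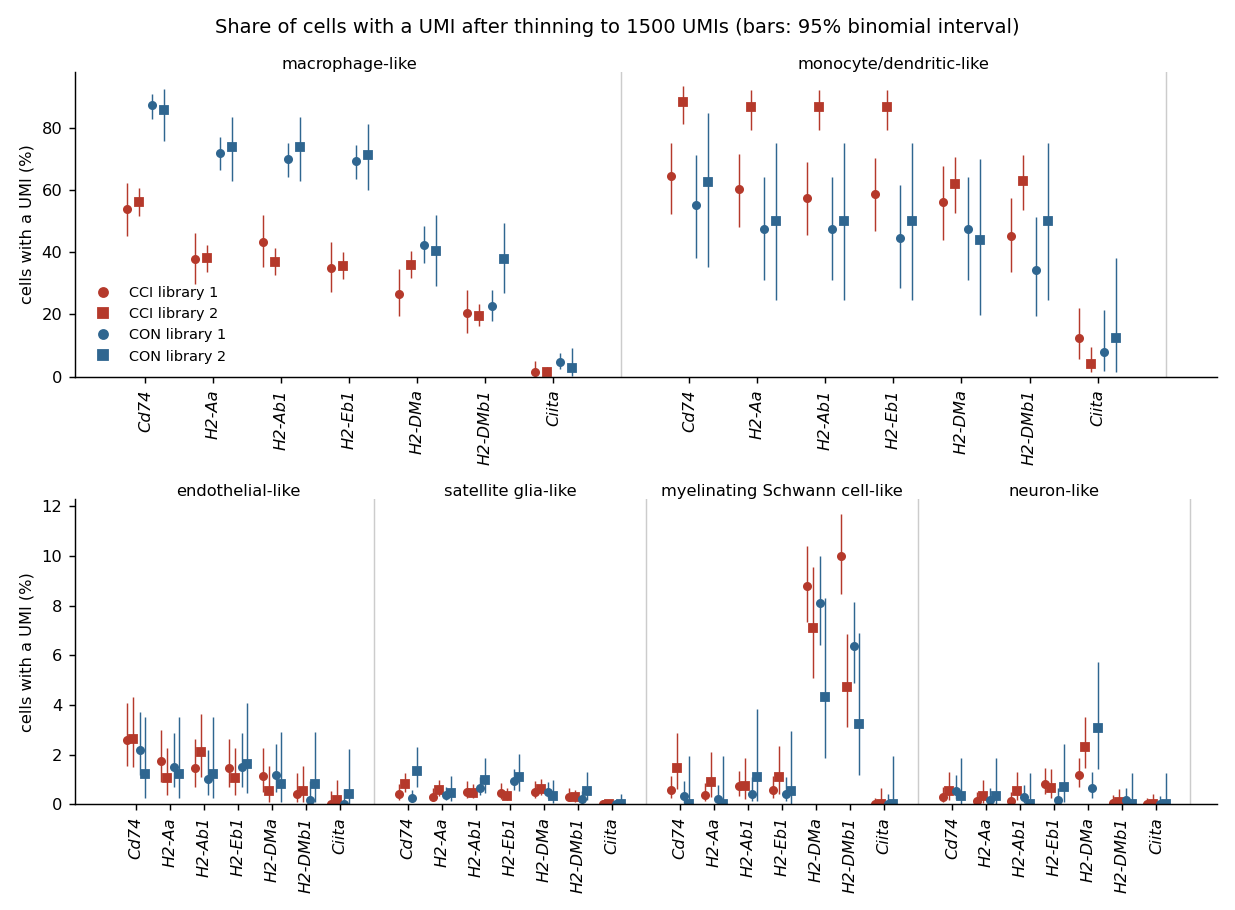
Share of cells (%) with a UMI of each gene after thinning to 1500 UMIs, with 95% exact binomial intervals, 1 symbol per library and CCI in red left of CON in blue, in macrophage-like and monocyte and dendritic cell-like cells (upper row) and in endothelial-like, satellite glia-like, myelinating Schwann cell-like and neuron-like cells (lower row, other scale). Cd74 is found in 53.8% and 56.2% of macrophage-like cells in CCI, against 87.3% and 85.7% in CON, and the lower row stays under a few percent apart from H2-DMa and H2-DMb1 in myelinating Schwann cell-like cells.

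H2-DMa and H2-DMb1 had a second site outside the immune system, in myelinating Schwann cell-like cells. H2-DMa was at 90.0 and 82.3 CPM there in CCI, against 68.9 and 33.1 CPM in CON, and H2-DMb1 at 93.0 and 59.4 CPM in CCI, against 62.3 and 36.1 CPM in CON. The same cells had Cd74 at only 5.25 and 12.0 CPM in CCI, against 3.34 and 3.01 CPM in CON, and no UMI of Ciita in any library. Per 100 UMIs of Cd74 they held 3490 and 1180 UMIs of H2-DMa and H2-DMb1 in CCI, against 3930 and 2300 in CON, the last from 3 Cd74 UMIs. In macrophage-like cells this ratio was 12.3 and 11.6 in CCI, against 8.18 and 5.52 in CON. The ratio in myelinating Schwann cell-like cells was thus above that of macrophage-like cells in all 4 libraries. This alone was not particular to them. Neuron-like cells were also above macrophage-like cells, at 597 and 124 in CCI, against 587 and 694 in CON. So were satellite glia-like cells, at 304 and 124 against 126 and 34.9, and endothelial-like cells, at 41.5 and 23.7 against 14.6 and 88.6. In each library the ratio of myelinating Schwann cell-like cells was above those of these classes. With cells carrying a macrophage UMI removed, H2-DMa in myelinating Schwann cell-like cells was still at 87.5 and 80.9 CPM in CCI, against 68.9 and 34.4 CPM in CON. After thinning, 8.77% (7.33–10.4%) and 7.09% (5.09–9.57%) of the cells had an H2-DMa UMI in CCI, against 8.10% (6.42–10.0%) and 4.30% (1.87–8.30%) in CON.

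Both larger clusters of myelinating Schwann cell-like cells carried the H2-M genes. Cluster 7 had H2-DMa at 117 and 128 CPM in CCI, against 75.8 and 49.3 CPM in CON, and cluster 6 at 76.9 and 46.9 CPM in CCI, against 71.7 and 29.9 CPM in CON. H2-DMb2, the near-identical copy of H2-DMb1, had no UMI in either CCI library of this class, against 0.371 and 0 CPM in CON. In the edgeR test of the class 0 of 4 members were called beside 0 of 10775 genes (0%) in all, and 0 of 4 and 257 of 10775 genes had an unadjusted p under 0.05. The log2 fold change was 0.77 for H2-DMa (SE 0.40, adjusted p = 1) and 0.66 for H2-DMb1 (SE 0.39), so the higher H2-DMa of both CCI libraries was not beyond the spread. Non-myelinating Schwann cell-like cells had less of it, with H2-DMa at 11.4 and 8.32 CPM in CCI, against 5.60 and 5.68 CPM in CON. There 0 of 4 members were called beside 0 of 10767 genes (0%), with 0 of 4 and 214 of 10767 genes at an unadjusted p under 0.05.

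Neuron-like cells held 34.3% and 20.9% of the H2-DMa UMIs in CCI, against 31.5% and 33.3% in CON, at low levels of 8.18 and 12.2 CPM in CCI, against 7.60 and 8.37 CPM in CON. H2-DMa was found in 1.18% and 2.31% of neuron-like cells after thinning in CCI, against 0.636% and 3.06% in CON. Cd74 in neuron-like cells was at 1.45 and 10.5 CPM in CCI, against 1.39 and 1.26 CPM in CON. C1qa was at 0.583 and 4.08 CPM in CCI, against 0.592 and 0.837 CPM in CON, so that both were highest in CCI replicate 2 but were not in the same order elsewhere. In CCI replicate 2, 10 of 917 neuron-like cells held 69.9% of the UMIs of Cd74, H2-Aa, H2-Ab1 and H2-Eb1, and 7 of them had a macrophage UMI. The edgeR test called 0 of 6 members in neuron-like cells beside 595 of 15459 genes (3.85%), of which 3.48% were higher and 0.369% lower in CCI, and 2 of 6 members and 2469 of 15459 genes had an unadjusted p under 0.05. Cd74 had a log2 fold change of 2.26 (SE 0.76, adjusted p = 0.181) and H2-DMa of 0.43 (SE 0.25, adjusted p = 0.477). In fibroblast-like cells 0 of 4 members were called beside 0 of 10564 genes (0%), with 0 of 4 and 509 of 10564 genes at an unadjusted p under 0.05. Their Cd74 moved with the macrophage markers, which summed to 13.3 and 221 CPM in CCI, against 83.8 and 5.58 CPM in CON. Of the mural cell-like genes only H2-Eb1 could be tested, at 6.49 and 8.36 CPM in CCI, against 9.83 and 15.2 CPM in CON (log2 fold change −0.57, SE 0.50, adjusted p = 1 in edgeR, 0 of 10260 genes called, or 0%). In the low-UMI barcodes with neuron markers 0 of 5 members were called beside 1126 of 12543 genes (8.98%, with 5.18% higher and 3.79% lower in CCI), and 0 of 5 members and 3169 of 12543 genes had an unadjusted p under 0.05. Their Cd74 was at 2.84 and 75.2 CPM in CCI, against 13.2 and 8.17 CPM in CON.

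Whether the CCI effect differed between the classes was tested with an interaction term and a block for each library. The effect in macrophage-like minus endothelial-like cells was called for 0 of 7 members beside 3 of 12974 genes (0.0231%), and 2 of 7 members had an unadjusted p under 0.05. H2-DMb1 came nearest, with a difference of −1.57 on the log2 scale (SE 0.48, adjusted p = 0.415 in edgeR). For macrophage-like minus satellite glia-like cells 0 of 7 members and 0 of 13731 genes (0%) were called, with 3 of 7 members at an unadjusted p under 0.05. For endothelial-like minus satellite glia-like cells 0 of 6 members and 0 of 13742 genes (0%) were called, and 0 of 6 members had an unadjusted p under 0.05. Without CON replicate 1, 4 of 7 members were called between macrophage-like and endothelial-like cells beside 272 of 13341 genes (2.04%), and 1 of 7 between endothelial-like and satellite glia-like cells beside 30 of 14137 genes (0.212%), each with a lone CON library. Against further classes no member was called either, beside 17 of 15128 genes against neuron-like cells. No gene was called of 10797 against fibroblast-like cells, 10473 against mural cell-like cells or 12264 against the low-UMI neuron barcodes. Nor was any of 11168 against myelinating or 11380 against non-myelinating Schwann cell-like cells. The smallest adjusted p of a member in edgeR was 0.199, for Cd74 (−2.01) and H2-Ab1 (−2.60) in macrophage-like minus non-myelinating Schwann cell-like cells. There every member had an unadjusted p under 0.05 in edgeR, as did every member but Ciita against myelinating Schwann cell-like cells. Against mural cell-like cells only H2-DMa, H2-Ab1 and Cd74 did, and against neuron-like cells only H2-Aa, H2-Eb1 and Cd74. Against fibroblast-like cells only H2-DMb1 did, and against the low-UMI neuron barcodes no member did. How many of all genes reached that unadjusted threshold in the interactions was not counted. The lower level in macrophage-like cells was therefore not shown to be particular to them.

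Summed over all kept cells, as a bulk sample of the ganglion would see it, class II transcripts did not separate the groups. Cd74 was at 76.4 and 377 CPM in CCI, against 111 and 240 CPM in CON, and H2-Aa at 33.1 and 166 CPM in CCI, against 53.8 and 85.8 CPM in CON. In such sums fewer cells of a type and less RNA per cell cannot be told apart. H2-DMa alone did not overlap, at 15.2 and 29.8 CPM in CCI, against 15.0 and 14.8 CPM in CON. CCI replicate 1 lay barely above the CON libraries, so only CCI replicate 2 stood apart. The edgeR test called 0 of 7 members beside 12 of 17401 genes (0.069%), all 12 higher in CCI, with 0 of 7 and 1510 of 17401 genes at an unadjusted p under 0.05, and DESeq2 called 0 members. CCI replicate 2 set the direction, since the log2 fold change of Cd74 was 0.46 (SE 0.75, adjusted p = 0.891) with all libraries and −1.09 without it.

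The other genes of the pathway were taken from a list, of which 24 were counted in the files. In macrophage-like cells 19 of them could be tested and 0 were called by edgeR, with a median log2 fold change of −0.11, beside −0.05 over all genes. The highest in level were the proteases of antigen and invariant chain. Lgmn, asparagine endopeptidase, was at 1560 and 2080 CPM in CCI, against 735 and 1150 CPM in CON, and Ctsl, cathepsin L, at 961 and 745 CPM in CCI, against 664 and 332 CPM in CON. Both were higher in each CCI library, opposite to the class II genes, without passing the test (adjusted p = 0.939 and 0.952 in edgeR). Ctss, cathepsin S, overlapped, at 1490 and 1770 CPM in CCI, against 1050 and 2450 CPM in CON. The RFX subunits that bind class II promoters lay low, with Rfx5 at 3.75 and 4.08 CPM in CCI, against 4.65 and 4.81 CPM in CON. Irf1, a transcription factor induced by interferon gamma, was at 51.3 and 73.7 CPM in CCI, against 72.0 and 154 CPM in CON. In endothelial-like cells 0 of 17 listed genes were called, in satellite glia-like cells 0 of 16 and over all kept cells 0 of 23.

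The genes whose pattern was most like the set were sought over 47 sums of 13 classes and the 4 libraries, by Pearson correlation of log2(CPM + 1) with the mean of the 7 members. The members themselves ran between 0.980 for H2-Ab1 and 0.868 for H2-DMb1, with Ciita at 0.940 and H2-DMa at 0.876. H2-DMa and H2-DMb1 stood at ranks 24 and 27 of 7626 genes, behind a number of genes outside the set. The 10 nearest genes outside the set were Tnip3 (0.939), Gm6377 (0.929), Clec10a (0.925), Slamf9 (0.922), Cd83 (0.922), Pld4 (0.921), Irf5 (0.915), Tifab (0.914), Ms4a4c (0.911) and Ctss (0.908). Cd83 marks mature dendritic cells and Clec10a is a lectin of dendritic cells and macrophages. The sums share libraries and depth and are not independent, so the correlations are a description.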

How the data were processed

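Droplet single-cell libraries of left L4 and L5 DRGs were used, 2 of CCI and 2 of CON mice. The authors ran fastp and Cell Ranger 5.0.1 (genome mm10), and what they deposited is an unnormalized table of UMI counts for each barcode and 31253 genes, made before their own downsampling and filter on cells. Total UMIs per library lay between 52074235 and 135009606, and where nothing was counted up to 3 UMIs could have been missed.

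Cells needed over 500 genes and a mitochondrial share below 20%, after which 13 mitochondrial genes were dropped. Normalization used sctransform 0.4.2, and anchors in Seurat 5.3.0 (R 4.3.3) joined the libraries (2000 features, 10 principal components, resolution 0.8), with 31 class II and pathway genes left out of the features, and immune cells were clustered again. A class needed 3 markers at 1.5 times the mean of other cells. Low-UMI neuron barcodes were kept apart from neurons, and tied classes got joint names. Scrublet called 4 barcodes in all, so no doublets were removed in the main analysis.

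The UMIs of each class were added up within a library, and these sums were tested with edgeR 4.0.16 (quasi-likelihood, TMM, filterByExpr, Benjamini-Hochberg, adjusted p under 0.05) in classes with at least 20 cells in every library. Named genes were the 7 members, the pathway genes by counts with the highest in level, class markers, and the 10 most similar genes with at least 50 CPM in 2 sums. Rfx5, Irf1, Plvap, H2-DMb2 and the leading genes of clusters were named after their values had been seen. Shares have exact binomial intervals after thinning to 1500 UMIs. Results were recomputed with DESeq2 1.42.0, with upper-quartile factors and without the low-count filter, and with each library left out, a block for the replicate number, a stricter cell filter (more than 1000 genes, under 10% mitochondrial UMIs), removal of the top 5% of doublet scores, features kept, no integration, removal of cells with macrophage UMIs, and thinning to 1000 or 3000 UMIs. Macrophage clusters taken alone or removed and interactions with further classes were added after seeing the data. The members, lists and several rules were chosen with earlier results of these data known. Nothing states that libraries came from separate animals, so p-values measure only the spread between these libraries. Intervals cover counting error only. The tests were tried on simulated data.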

Additional observations from a re-analysis of the deposited data

How the results depend on the processing

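Members called were 0 under 50 of 51 alternatives of the 4 class tests, and between 0 and 2 in macrophage-like cells with a library left out. With 2 libraries a group such a count says nothing about stability. In macrophage-like cells 101 of 104 alternative fold changes kept their direction and their side of the threshold, 2 passed it without CON replicate 1, and 1 turned, H2-DMa at 0.07 in cluster 0 alone. Over the 16 settings the log2 fold change of Cd74 ran between −2.53 and −0.76 and that of Ciita, over 15, between −2.04 and −1.17. The count of all genes called was less stable. In macrophage-like cells it was 28 with DESeq2, 150 with no filter on low counts and 0 to 165 with a library left out. In endothelial-like cells it was 19 with DESeq2, 7 with no filter and 0 to 2 with a library left out. In satellite glia-like cells it was 27 with DESeq2, 3 with no filter, 1 with the stricter cell filter, 1 with high doublet scores removed, 1 without integration and 0 to 3 with a library left out. Over all kept cells it was 426 with DESeq2, 7 with upper-quartile factors, 201 with no filter, 39 with the stricter cell filter, 33 with high doublet scores removed and 0 to 227 with a library left out. Members called in the interactions ran from 0 to 4 for macrophage-like minus endothelial-like cells and from 0 to 1 for endothelial-like minus satellite glia-like cells with a library left out.

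Further fold changes turned in direction. In endothelial-like cells, without CON replicate 1, Cd74 was at 1.63, H2-Aa at 0.56, H2-Ab1 at 0.42 and H2-Eb1 at 0.44, and Cd74 was at 0.08 without CCI replicate 1, while without CON replicate 2 they were at −1.14, −1.44, −1.44 and −1.51. With cells carrying macrophage UMIs removed, Cd74 was at 0.86 and H2-Ab1 at 0.34. In satellite glia-like cells Cd74 was at 0.41 without CON replicate 2 and −2.12 without CCI replicate 2, and H2-Aa was at 0.23 without integration. Over all kept cells without CCI replicate 2, Cd74 was at −1.09, H2-Aa at −0.97, H2-Ab1 at −0.71, H2-Eb1 at −0.80 and Ciita at −0.24, and Ciita was at −0.05 without CON replicate 1. The other ends of these ranges were 1.19, 1.33, 1.29 and 1.10 for Cd74, H2-Aa, H2-Ab1 and H2-Eb1 without CCI replicate 1 and 0.57 for Ciita without CON replicate 2. The cause was not tested. Thinning to another depth moved 54 of 84 shares by more than the spread between replicates, and removing cells with macrophage UMIs moved 15 of 98 levels.

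Same-numbered libraries deviated together in each class (r between 0.32 and 0.52 over genes), but with 2 pairs they share only a number. With the replicate block 0 members were called in each of the 4 tests, 2 genes in satellite glia-like cells and 84 over all kept cells, and Cd74 in endothelial-like cells was at 0.06. Low counts limited Ciita outside the immune cells, where it had at most 7 UMIs a library in endothelial-like and satellite glia-like cells.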

Other observations

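A few classes outside the comparisons also held class II transcripts. T or NK cell-like cells had Cd74 at 174 and 330 CPM in CCI, from 43 and 103 UMIs, against 29.8 and 0 CPM in CON, from 2 and 0 UMIs, and H2-Eb1 at 28.4 and 106 CPM in CCI, against no UMI in CON. The class numbered 68 and 90 cells in CCI, against 26 and 5 in CON, and its B cell markers summed to 20100 and 138 CPM in CCI, against 59.7 and 48.8 CPM in CON, whose part was not tested. Neutrophil-like cells had Cd74 at 8.93 and 160 CPM in CCI, against 171 and 0 CPM in CON. A cluster of 80 immune cells led by Elane and Prtn3, genes of early granulocytes, stayed unnamed and had Cd74 at 1900 and 3390 CPM in CCI, against 89.6 and 5180 CPM in CON. Erythrocyte-like cells had 33 and 5 Cd74 UMIs in CCI, against 0 in each CON library. None of these classes was tested.

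Barcodes that failed quality control had Cd74 at 2.45 and 42.7 CPM in CCI, against 2.71 and 157 CPM in CON, so that the second library of each group held more of it than the first.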
